A study of Mus musculus with 7 samples.

Results

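The genes that write, copy, read and erase DNA methylation in mice were examined in the chromatin accessibility data of freshly sorted airway macrophages (AMs). The set was *Dnmt1*, *Dnmt3a*, *Dnmt3b*, *Uhrf1*, *Tet1*, *Tet2*, *Tet3* and *Mbd2*, and its members were all peaks that the deposited annotation assigned to 1 of these 8 genes. There were 90 such peaks among 90376 (0.0996%), with 28 at *Tet2*, 25 at *Dnmt3a*, 11 at *Mbd2*, 9 at *Tet1*, 7 at *Dnmt1*, 6 at *Tet3*, 3 at *Dnmt3b* and 1 at *Uhrf1*. The rule used gene names and no measured value, but the genes were chosen with earlier results of these data known.

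DNA methylation in mammals sits mainly on cytosines that precede a guanine (CpG). DNMT3A and DNMT3B place it on unmethylated DNA, and DNMT1, guided by UHRF1, which binds hemimethylated DNA behind the replication fork, copies it to the new strand. The TET enzymes oxidize 5-methylcytosine, which starts its removal, and MBD2 binds methylated CpGs and recruits the NuRD repressor complex. DNMT3A and TET2 are best known in blood cells as genes whose loss drives clonal growth of hematopoietic stem cells, and TET2 restrains inflammatory cytokine genes in macrophages. ATACseq shows where a transposase can reach the DNA, which is not a measure of how much of a gene's RNA or protein a cell holds.

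ATACseq had been performed on AMs from 3 wild-type (WT) samples and 4 *Scnn1b*-Tg samples, with 1 library for each. *Scnn1b*-Tg mice carry a transgene for the beta subunit of the epithelial sodium channel under the club cell secretory protein promoter, which is active in airway epithelium and not in AMs, and they develop muco-obstructive lung disease. All mice were on the C57BL/6 background, WT animals were littermates without the transgene, and the study's methods give 6-week-old females for sorted cells, taken as CD45+ Siglec-F+ CD11c+. The cells were not stimulated. The labels put the samples in batches that both genotypes share, except 1 that holds a single *Scnn1b*-Tg sample, but the columns of the table name only the genotype and a running number. That running number is the replicate number used here, so no library could be tied to a batch, and the part of batch in the results was not tested. No source says whether a library came from 1 animal or several. P-values here weigh a genotype difference against the variation between libraries, estimated in part over all peaks or genes. That variation may not be the one between animals.

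Libraries held 20971521 to 56121809 reads in peaks, a 2.68-fold range, and 1 read was worth 0.614 to 1.58 normalized reads. WT replicate 3 and *Scnn1b*-Tg replicate 4 had stood apart from the other 5 libraries in earlier work on these data, and results were also computed without both. All 15 AM marker genes looked up had peaks, and their start peaks lay above 30.2% (*Ear1*) to 99.6% (*Cd68*) of the start peaks of all genes per kb, with a median of 69.3%. Of 36 markers of other cell types, 30 had peaks, whose start peaks lay above a median of 32.7% and at most 78.0% (*S100a8*) of all, and 6 of the 30 lay above 50%, among them *Cd3d* and *Scgb1a1*. No peak was assigned to the neutrophil gene *Elane*, the eosinophil gene *Epx*, *Cd8a*, *Cd79a*, *Sftpc* or *Scnn1b*, the gene of the transgene. None of the 379 peaks of these 7 marker lists had an unadjusted p under 0.05, beside 2.01% of all peaks. Genotypes did not overlap at 1 AM marker peak (*Marco*, higher in *Scnn1b*-Tg, 0.446% of the list) and 1 neutrophil marker peak (*Cxcr2*, higher, 3.33%). They also did not overlap at 1 lung epithelial marker peak (*Scgb1a1*, lower, 2.04%), beside 3.23% of all peaks. In bulk samples, fewer cells of a type with an open region and less opening in each cell cannot be told apart.

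The sequences that the results turn on come from the mm10 assembly and are written 5′ to 3′ in the direction of the gene. The first pair shows the contrast within *Tet2*. The 300 bases just before the start of transcript Tet2-201 (chr3:133544391-133544690, minus strand), inside the most accessible start peak of the set, hold 59 CpGs, and the central 200 bases of the next peak into intron 1 (chr3:133542252-133542451, minus strand) hold 0. The 250 bases just before the first *Dnmt3b* start (chr2:153649200-153649449, plus strand), inside the least accessible start peak, hold 21. This contrast is one of the windows shown. The whole start peaks held 137 CpGs in 1760 bp at *Tet2* and 128 in 1662 bp at *Dnmt3b*. CpGs are in capitals.

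Tet2 start: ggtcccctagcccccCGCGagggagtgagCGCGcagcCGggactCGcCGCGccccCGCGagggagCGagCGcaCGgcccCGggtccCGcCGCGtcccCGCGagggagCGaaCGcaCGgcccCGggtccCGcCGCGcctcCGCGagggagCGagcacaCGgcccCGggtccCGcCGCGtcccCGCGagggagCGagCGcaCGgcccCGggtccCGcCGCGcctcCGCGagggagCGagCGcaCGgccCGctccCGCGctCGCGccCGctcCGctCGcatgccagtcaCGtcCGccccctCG
Tet2 start flank: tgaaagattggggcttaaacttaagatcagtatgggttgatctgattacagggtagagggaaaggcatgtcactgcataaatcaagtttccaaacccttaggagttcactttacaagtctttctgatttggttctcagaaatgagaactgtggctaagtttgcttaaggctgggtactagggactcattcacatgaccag
Dnmt3b start: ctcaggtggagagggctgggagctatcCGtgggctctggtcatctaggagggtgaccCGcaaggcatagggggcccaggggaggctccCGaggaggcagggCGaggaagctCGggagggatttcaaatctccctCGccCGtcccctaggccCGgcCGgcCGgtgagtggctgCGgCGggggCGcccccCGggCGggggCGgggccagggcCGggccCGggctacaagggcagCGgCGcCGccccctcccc

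The next 3 are the centres of the *Dnmt3a* peaks that were higher in all *Scnn1b*-Tg libraries than in any WT library, all on the plus strand. They lie in intron 1 (chr12:3823540-3823839 and chr12:3820669-3820868) and within the intronic stretch of the peak at an internal start (chr12:3894533-3894732). Capitals mark any match to 12 short strings, spelled out or named where they are counted. The first window holds 2 matches to the AP-1 string as searched, TGATTCA and TGAGTCA. That string (TGANTCA, any base at N) is a loose form of the site of Fos and Jun family factors. The second window holds a CCAAT box on the other strand, and the third none of the 12.

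Dnmt3a intron 1, wider peak: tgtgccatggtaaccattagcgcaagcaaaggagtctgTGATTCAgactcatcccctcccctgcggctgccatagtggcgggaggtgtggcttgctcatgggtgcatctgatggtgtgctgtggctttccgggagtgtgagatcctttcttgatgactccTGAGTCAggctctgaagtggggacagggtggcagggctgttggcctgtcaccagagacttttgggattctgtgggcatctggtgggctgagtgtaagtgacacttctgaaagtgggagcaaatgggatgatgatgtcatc
Dnmt3a intron 1, narrower peak: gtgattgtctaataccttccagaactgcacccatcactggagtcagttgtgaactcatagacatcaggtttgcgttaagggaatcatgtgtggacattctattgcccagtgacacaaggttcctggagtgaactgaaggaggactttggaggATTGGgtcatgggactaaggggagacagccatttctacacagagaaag
Dnmt3a internal start: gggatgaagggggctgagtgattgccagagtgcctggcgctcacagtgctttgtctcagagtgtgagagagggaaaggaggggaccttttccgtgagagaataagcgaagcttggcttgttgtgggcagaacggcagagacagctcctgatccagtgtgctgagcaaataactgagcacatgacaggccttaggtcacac

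The last pair shows E2F strings at the starts of both maintenance genes, with CCAAT boxes or an NRF1 string beside them. An E2F string was also in the *Tet2* start peak, and CCAAT boxes were in the start peaks of all 8 genes. Of all promoter peaks, 4.07% held an E2F string and 61.0% a CCAAT box. Their median width was 945 bp, against 931 to 2172 bp for these 8 start peaks. The 250 bases before the start of Uhrf1-202 (chr17:56304063-56304312, plus strand) hold an E2F string (TTTNGCGC) followed by 2 CCAAT boxes, and 30 bases at the start of Dnmt1-207 (chr9:20952582-20952611, minus strand) hold an NRF1 string and an E2F string. E2F factors switch on genes of DNA replication, and NRF1 binds a GC-rich string at many housekeeping genes.

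Uhrf1 start: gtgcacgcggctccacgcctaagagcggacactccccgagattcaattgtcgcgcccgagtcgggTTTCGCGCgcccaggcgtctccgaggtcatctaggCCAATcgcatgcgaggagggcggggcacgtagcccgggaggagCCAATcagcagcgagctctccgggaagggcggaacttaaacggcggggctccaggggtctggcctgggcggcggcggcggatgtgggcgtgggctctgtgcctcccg
Dnmt1 start: gcGCGCATGCGCggggcagcgTTTGGCGCg

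The first question was how accessible the starts of these genes are in AMs. Levels between genes are normalized read counts per kb of peak width, for the peak nearest to an annotated start, with ties settled by the larger mean. *Tet2* was highest, with 991 to 1134 in WT against 995 to 1365 in *Scnn1b*-Tg libraries, above 82.5% of the start peaks of all 17797 genes with a peak, and its 7 libraries did not overlap those of any other member. *Mbd2* followed with means of 760.5 and 733, *Tet3* with 654 and 618, *Uhrf1* with 606 and 593 and *Dnmt1* with 462 and 453, and each of these overlapped its neighbour in the order. The libraries of *Dnmt1*, from 352, did not overlap those of the next gene, *Dnmt3a*, but met those of *Tet1*, which reached 353. The lowest 3 were *Dnmt3a*, with 297 in WT against 296 in *Scnn1b*-Tg, *Tet1* with 291 and 297, and *Dnmt3b* with 247 and 232, which overlapped each other. The order was the same in both genotypes down to *Dnmt1*, and *Dnmt3a* and *Tet1* changed places. The place of *Dnmt3a* holds for the internal start that the rule took. Its 5′ end peak had means of 407 in WT and 450.2 in *Scnn1b*-Tg, and its libraries, from 274 to 616, overlapped those of *Dnmt1*, from 352 to 598.

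**Figure D1:**
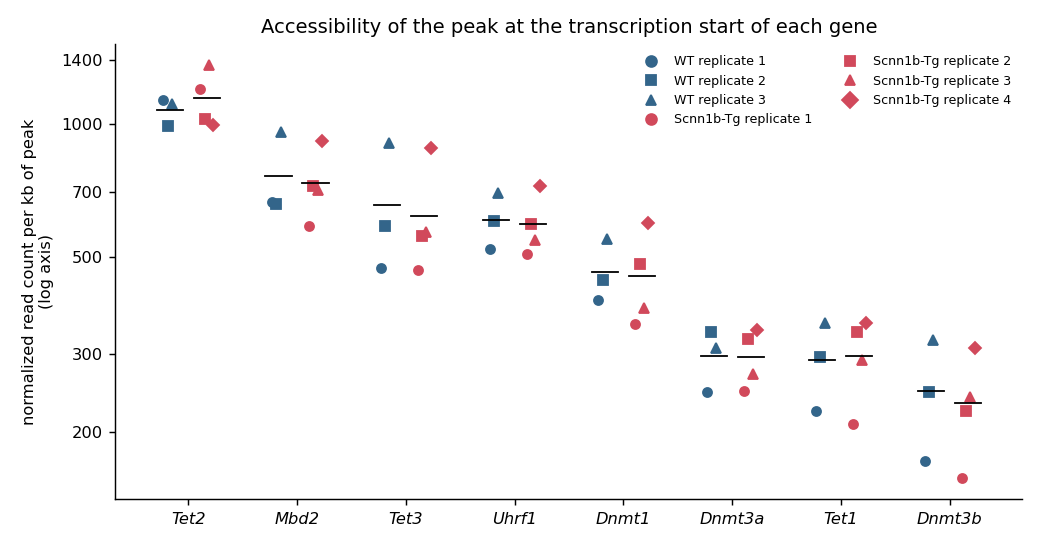
Normalized read count per kb of peak width (log axis) at the start peak of each gene, with a point for each of 3 WT (blue) and 4 *Scnn1b*-Tg (red) libraries and a bar at the mean. The *Tet2* points lie between 991 and 1365, above those of every other gene, and the genotypes overlap at all 8 genes.

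The start of *Tet2* (chromosome 3, 133543870 to 133545629, 1760 bp), which covers the starts of 5 *Tet2* transcripts and of the antisense gene *Gm42567*, held 1996, 1744 and 1953 normalized reads in WT libraries and 2109.6, 1803, 2402 and 1752 in *Scnn1b*-Tg libraries. The genotypes overlapped, and *Scnn1b*-Tg replicate 3 was highest. Throughout, log2 fold changes are differences of mean log2(value + 1), taken as *Scnn1b*-Tg minus WT, and the one here was 0.08 (SE 0.14). At the *Dnmt1* start (chromosome 9, 20951927 to 20953593) WT libraries held 663, 736 and 912 and *Scnn1b*-Tg libraries 587, 799.6, 636 and 996, a log2 fold change of -0.05 (SE 0.20). Here WT replicate 3 and *Scnn1b*-Tg replicate 4 were the highest of their genotype, and replicate 1 of each genotype the lowest.

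The single peak of *Uhrf1* (chromosome 17, 56302890 to 56304675) showed the same order of libraries, with 929.5, 1074 and 1243 in WT against 903, 1062, 974 and 1294 in *Scnn1b*-Tg (log2 fold change -0.04, SE 0.16). The *Dnmt3b* start (chromosome 2, 153648819 to 153650480), which also covers the start of the antisense gene *Dnmt3bos*, held 286, 409 and 538 in WT against 261, 371, 399 and 515 in *Scnn1b*-Tg (log2 fold change -0.08, SE 0.26). *Dnmt3a* has starts at its 5′ end and internal ones. Its 5′ end peak (chromosome 12, 3805950 to 3807131) held 377, 423 and 642 against 324, 482, 595 and 728, and the peak over the starts of Dnmt3a-203 and Dnmt3a-205 (3890994 to 3893165), its start peak by the rule, 534, 730.5 and 673 against 537, 704, 587 and 740.0. Their log2 fold changes were 0.12 (SE 0.27) and -0.01 (SE 0.17), and the genotypes overlapped at both.

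Among the erasers, the *Tet1* start (chromosome 10, 62885602 to 62887459) held 414, 550.2 and 655 normalized reads in WT and 387, 626, 539 and 656 in *Scnn1b*-Tg, and the log2 fold change was 0.03 (SE 0.22). The *Tet3* start (chromosome 6, 83455116 to 83457204) held 986, 1229 and 1887 against 974, 1160.4, 1191 and 1839, a log2 fold change of -0.07 (SE 0.24). The start of the reader *Mbd2* (chromosome 18, 70567736 to 70568666) held 619, 613 and 892 against 545, 675, 659.5 and 852, a log2 fold change of -0.05 (SE 0.19). Over the 8 start peaks, log2 fold changes ran from -0.08 to 0.08, and the smallest unadjusted limma p was 0.576. The genotypes overlapped at each of the 8.

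The second question was whether any region of these genes differed with genotype. None of the 90 peaks passed an adjusted p of 0.05 in limma, where 0.00111% of all peaks (1 peak) did. The limma adjusted p of each member rounded to 1.00. The study's own test of this comparison, DiffBind with edgeR, called many more regions at that adjusted p and an absolute log2 fold change above 1. Lack of a call here therefore does not show that a peak was unchanged. At an unadjusted p under 0.05 there were 5 members (5.56%), where the share over all peaks was 2.01%. Of these, 4 were higher in *Scnn1b*-Tg, as 1.49% of all peaks were at that p, and 1 was lower, as 0.517% were. Values of the genotypes did not overlap at 4 members (4.44%), where the share over all peaks was 3.23%. Of these, 3 lay higher in *Scnn1b*-Tg (1.92% of all peaks) and 1 lower (1.31%). All of these peaks were at *Dnmt3a*. Of the 90 peaks, 51 (56.7%) had a log2 fold change above 0, beside 47.8% of all peaks, and the median log2 fold change was 0.04, beside -0.01 over all peaks. Only 1 member, again at *Dnmt3a*, had an absolute log2 fold change above 1, which 0.637% of all peaks had.

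**Figure D2:**
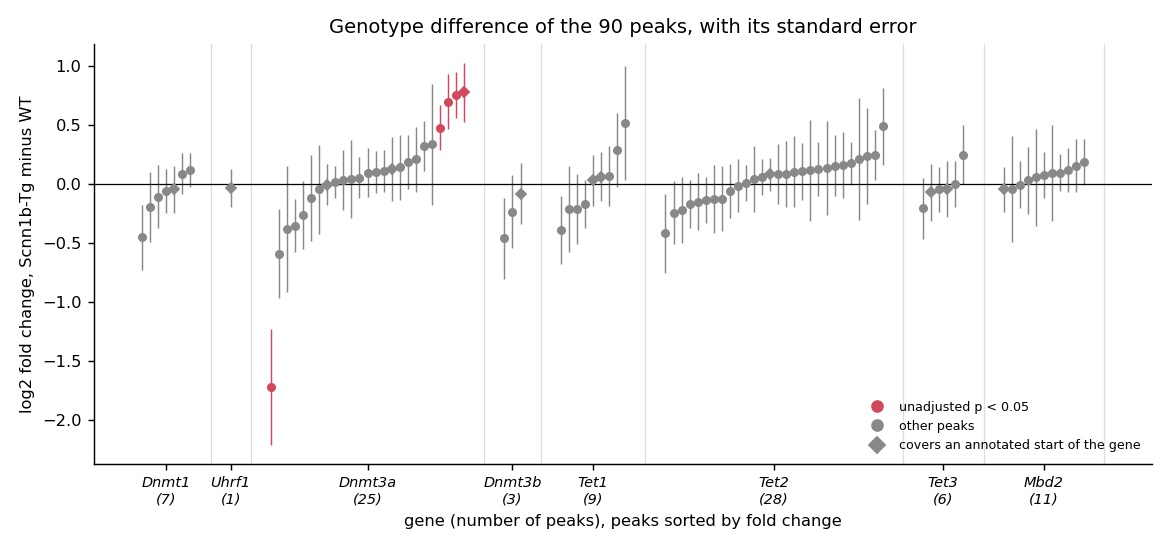
Log2 fold change (*Scnn1b*-Tg minus WT) of each of the 90 peaks with its standard error, sorted within each gene. Red marks an unadjusted limma p under 0.05 and diamonds mark peaks over an annotated start of the gene. The 5 red peaks are all at *Dnmt3a*, 4 above 0 and 1 at -1.72, and the other 7 genes lie between -0.46 and 0.52.

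*Dnmt3a* peaks ran over the whole gene, and 19 of the 25 lay inside it. In intron 1, a 1030 bp peak (chromosome 12, 3823175 to 3824204), 17.1 kb from the 5′ end peak, held 135, 177 and 202 normalized reads in WT libraries and 243, 310.1, 270.4 and 325 in *Scnn1b*-Tg libraries. Every *Scnn1b*-Tg library was above every WT library, and the means were 171.3 ± 33.8 (SD, n = 3) and 287.2 ± 37.1 (SD, n = 4). The log2 fold change was 0.75 (SE 0.19) with an unadjusted limma p of 0.00233. It was the smallest p of the 90 peaks, and it did not pass adjustment. With 1 surrogate variable in the fit, a setting in which 72 peaks passed (0.0797%), its adjusted p was 0.0411, and in the other settings it did not pass.

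A narrower peak of intron 1 (3820584 to 3820953), 2.92 kb nearer to the 5′ end, held 42.5, 41.5 and 37.7 in WT against 82.8, 70.7, 56.9 and 57.7 in *Scnn1b*-Tg, again without overlap. Its means were 40.6 ± 2.55 (SD, n = 3) and 67.0 ± 12.2 (SD, n = 4), and the log2 fold change was 0.70 (SE 0.23, unadjusted limma p 0.0119). The 4 *Scnn1b*-Tg libraries ran in another order here than at the wider peak, with replicate 1 highest. The peak over the starts of Dnmt3a-209 and Dnmt3a-217 (3894442 to 3894956), 2.62 kb beyond the larger internal start peak, held 81.6, 153 and 128 in WT against 174, 267, 169 and 206 in *Scnn1b*-Tg. It was higher in all *Scnn1b*-Tg libraries, by 0.77 on the log2 scale (SE 0.25, unadjusted limma p 0.00923), while the larger internal start beside it had -0.01. Without WT replicate 1, the lowest library, the log2 fold change was 0.52 and the p 0.0559.

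In intron 4 a 682 bp peak (3870824 to 3871505) held 439, 624 and 682 in WT against 680.5, 813, 729 and 986 in *Scnn1b*-Tg. The ranges met, WT replicate 3 being just above *Scnn1b*-Tg replicate 1, and the log2 fold change was 0.47 (SE 0.19, unadjusted limma p 0.0286). Its p was 0.154 without WT replicate 1 and 0.0585 in limma without a variance trend. The only *Dnmt3a* peak of the 5 that was lower in *Scnn1b*-Tg lay in the 3′ UTR (3911367 to 3911752), with 27.2, 35.6 and 17.1 in WT against 3.65, 12.7, 6.33 and 7.98 in *Scnn1b*-Tg. The means were 26.6 ± 9.24 (SD, n = 3) and 7.66 ± 3.80 (SD, n = 4), without overlap, and the log2 fold change was -1.72 (SE 0.49, unadjusted limma p 0.00438). With a mean this low, it was 1 of 2 members under a mean of 20 normalized reads, and the *Scnn1b*-Tg values rest on few reads.

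**Figure D3:**
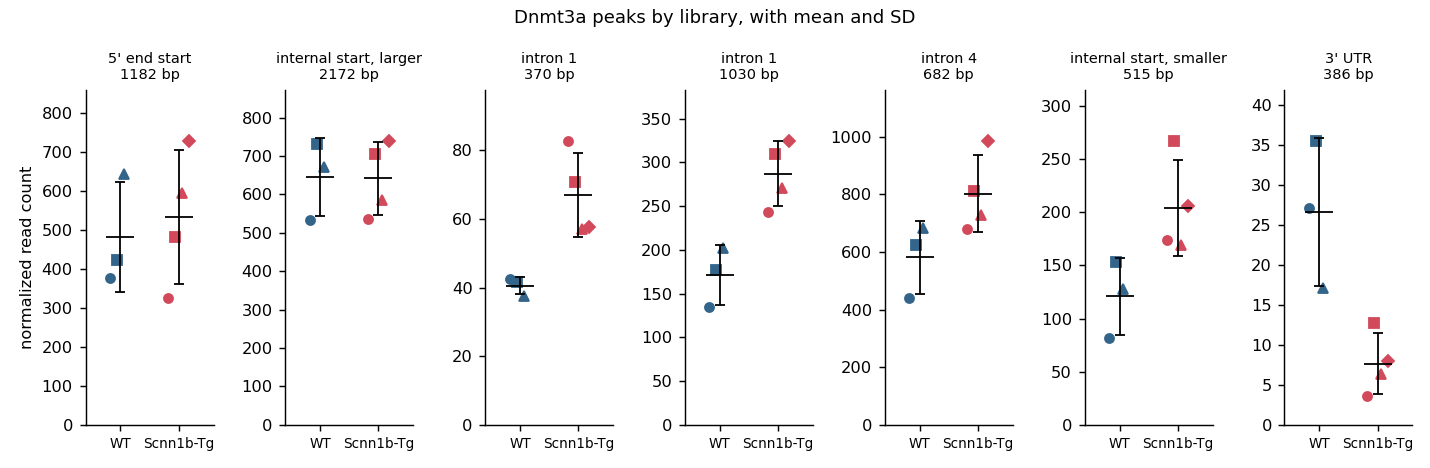
Normalized read counts of 7 *Dnmt3a* peaks by library (circle, square, triangle and diamond for replicates 1 to 4) with mean and SD, from axes that start at 0. The first 2 panels are the starts whose genotypes overlap, and of the other 5 only the intron 4 peak has overlapping values.

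The other 20 *Dnmt3a* peaks had log2 fold changes from -0.59 to 0.33 and overlapping genotypes. The most accessible was an intron 3 peak (3855703 to 3857007) with 1288, 1818 and 1144 in WT against 1326, 1743, 1431 and 1299 in *Scnn1b*-Tg, and the log2 fold change was 0.05 (SE 0.17). Of the 20 peaks up to and including the 3′ UTR, 16 were higher in *Scnn1b*-Tg, and of the 5 beyond the 3′ end, 4 were lower, none at an unadjusted p under 0.05. The lowest of these 5 (3916295 to 3917130) held 34.9, 72.3 and 57.1 in WT against 24.3, 64.4, 36.4 and 24.6 in *Scnn1b*-Tg, and the log2 fold change was -0.59 (SE 0.38). Summed over all 25 peaks, *Dnmt3a* had 6861 ± 919 (SD, n = 3) in WT against 7577 ± 906 (SD, n = 4) in *Scnn1b*-Tg, and the log2 fold change was 0.14 (SE 0.12), and the libraries overlapped. A gene with many peaks has more chances of small p-values, and the part of peak number here was not tested. Of 659 genes with at least 20 peaks, 13 (1.97%), *Dnmt3a* among them, had 5 or more at an unadjusted limma p under 0.05. The cut of 5 is the count of *Dnmt3a* itself, so this share is a description and not a test.

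**Figure D4:**
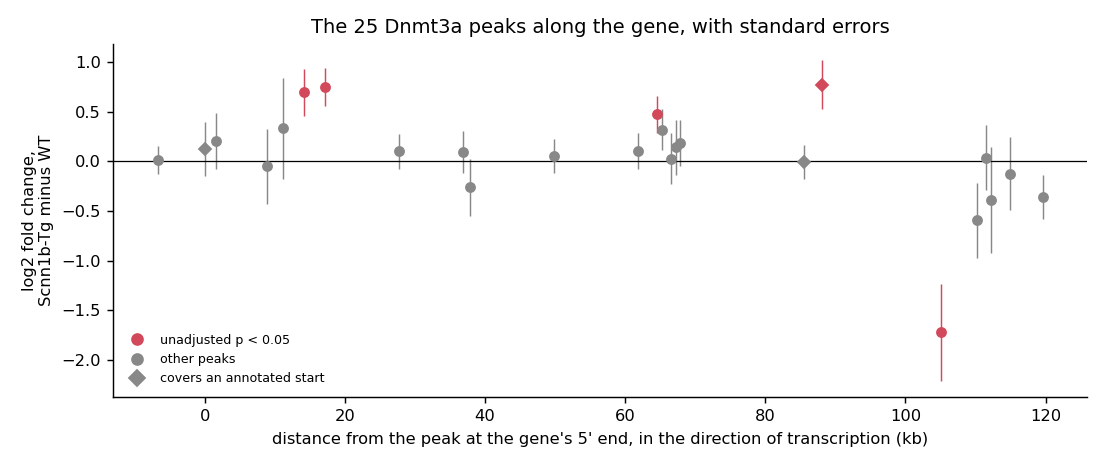
Log2 fold change (*Scnn1b*-Tg minus WT) with standard error of the 25 *Dnmt3a* peaks against the distance in kb of the peak centre from that of the 5′ end peak. Red marks an unadjusted limma p under 0.05 and diamonds annotated starts. The 4 higher red peaks lie at 14.2, 17.1, 64.6 and 88.2 kb with unmarked peaks near 0 between them, and the lower one at 105.0 kb.

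*Tet2* had the most peaks of the set and the highest summed accessibility, 10273 ± 1441 (SD, n = 3) in WT against 10574 ± 1589 (SD, n = 4) in *Scnn1b*-Tg, above 97.8% of all genes. Of its 28 peaks, 12 lay inside *Tet2*, 10 only in the neighbouring genes *Gm42567*, *Gm37228* and *Gm40153*, and the rest in no annotated gene, so that their assignment rests on distance alone. None had an unadjusted p under 0.05, where 2.01% of all peaks had. The highest log2 fold change was 0.48 (SE 0.32) at 133423014 to 133423422, an intergenic peak 48.4 kb from the nearest start in the deposited annotation, with 51.9, 28.5 and 35.4 in WT against 71.8, 41.7, 71.2 and 36.2 in *Scnn1b*-Tg. The lowest was -0.42 (SE 0.33) at 133531563 to 133531904 in intron 1, with 39.1, 43.9 and 28.5 against 26.8, 27.2, 17.4 and 42.4. The widely open intron 1 peak at 133525287 to 133526820 held 2076, 1571 and 2144 in WT against 2078, 1576, 1953 and 2122 in *Scnn1b*-Tg, and the log2 fold change was 0.01 (SE 0.15).

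The peaks that flank the *Tet2* start varied more between libraries than between genotypes. The AT-rich peak 1.58 kb into the gene, whose centre is printed above, held 1136, 904 and 532 in WT against 1187, 935, 1058 and 507 in *Scnn1b*-Tg. The next one, 2.99 kb into the gene (133540893 to 133541293), held 342, 179 and 83.4 against 422, 208, 217 and 82.3. At both, WT replicate 3 and *Scnn1b*-Tg replicate 4 were lowest by far, while at the CpG-rich start beside them these libraries were within the range of the others. The log2 fold changes were 0.10 (SE 0.30) and 0.21 (SE 0.52).

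*Tet1* had 9 peaks with log2 fold changes from -0.39 to 0.52. The highest (62863619 to 62863883) held 21.3, 13.04 and 38.8 in WT against 20.7, 18.1, 61.7 and 45.4 in *Scnn1b*-Tg, with SE 0.48. The lowest and the one of smallest p (62881104 to 62881491) held 35.7, 52.2 and 44.5 against 31.6, 31.7, 25.3 and 46.7 (SE 0.29, unadjusted limma p 0.198). *Tet3* had 6 peaks, all inside the gene, from -0.21 to 0.25. Its second start-covering peak (83441143 to 83442242), shared with the start of *B230319C09Rik*, held 386, 469.6 and 646 against 383, 461, 405 and 704. Neither gene had a peak whose genotypes separated.

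Of the 7 *Dnmt1* peaks, 4 lay in the 3′ UTR of the neighbouring gene *S1pr2*, a sphingosine 1-phosphate receptor gene, and only 2 inside *Dnmt1*. The member of smallest p outside *Dnmt3a* was 1 of these 4 (20964761 to 20964993), with 58.7, 65.2 and 46.8 in WT against 36.5, 44.4, 30.0 and 57.1 in *Scnn1b*-Tg, and the log2 fold change was -0.45 (SE 0.28) and an unadjusted limma p of 0.126. Without both libraries that stood apart its log2 fold change was -0.74 and its unadjusted limma p 0.0341. It was then the sixth member under 0.05, beside 2686 of all 90376 peaks. The *Dnmt1* intron 1 peak (20945397 to 20946988) held 655, 752 and 492 against 732, 705, 636 and 582, a log2 fold change of 0.08 (SE 0.17). The highest *Dnmt1* value was 0.11 (SE 0.14) at 20966144 to 20967604, also in *S1pr2*.

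*Dnmt3b* had 3 peaks, all lower on average in *Scnn1b*-Tg with overlapping genotypes. The intergenic one 25.2 kb from the nearest start (153694548 to 153694962) held 42.5, 29.6 and 62.8 in WT against 39.0, 24.5, 22.1 and 43.0 in *Scnn1b*-Tg, and the log2 fold change was -0.46 (SE 0.34). *Mbd2* had 11 peaks from -0.05 to 0.18, the narrowest span of the genes with several peaks. The highest, in intron 3 (70601130 to 70602073), held 132, 123 and 95.9 against 155, 122, 120.2 and 133 (SE 0.20), and the lowest was the start. Over the 65 peaks outside *Dnmt3a*, log2 fold changes lay between -0.46 and 0.52, none had an unadjusted p under 0.05, and no genotypes separated.

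Summed over all peaks of a gene, none of the 8 genes passed in limma, and none had an unadjusted p under 0.05, which 1.15% of all 17797 gene sums had. Of all gene sums 0 passed the adjusted threshold (0.0%), with 204 at an unadjusted p under 0.05. *Dnmt1* had 2426 ± 99.5 (SD, n = 3) in WT against 2454 ± 241.1 (SD, n = 4) in *Scnn1b*-Tg, *Dnmt3b* 484.3 ± 142.0 (SD, n = 3) and 442.3 ± 103.1 (SD, n = 4), and *Uhrf1* 1082 ± 157.1 (SD, n = 3) and 1058 ± 169.9 (SD, n = 4). *Tet1* had 1955 ± 29.1 (SD, n = 3) and 1884 ± 124.3 (SD, n = 4), *Tet3* 2304 ± 560.0 (SD, n = 3) and 2215 ± 539.8 (SD, n = 4), and *Mbd2* 2609 ± 80.8 (SD, n = 3) and 2702 ± 116.6 (SD, n = 4). Log2 fold changes were above 0 for 4 of the 8 genes, beside 43.1% of all gene sums. The *Scnn1b*-Tg to WT ratios of the 8 genes ran from 0.913 at *Dnmt3b* to 1.10 at *Dnmt3a*. The SE of these log2 fold changes was 0.08 to 0.24.

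The third question was what the peaks share between libraries. By CpG content (observed over expected of at least 0.6), 9 of the 90 peaks (10.0%) were CpG-rich, beside 11.8% of all peaks, and 8 of the 9 were promoters. In these 9, the median log2 deviation from the mean of the 7 libraries was -0.37, -0.06 and 0.38 in WT replicates 1 to 3 and -0.39, -0.03, 0.05 and 0.32 in *Scnn1b*-Tg replicates 1 to 4. In the 81 CpG-poor members it stayed between -0.06 and 0.05. Over all 10680 CpG-rich peaks the same libraries had -0.25, -0.01, 0.30, -0.26, 0.00, -0.03 and 0.26, so the pattern is one of the whole table. Across the 90 peaks, the deviation correlated with CpG observed over expected with r = 0.35 in WT replicate 3 and 0.41 in *Scnn1b*-Tg replicate 4, and with -0.36 in replicate 1 of both genotypes. These are correlations across peaks of the same libraries, which are not independent.

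**Figure D5:**
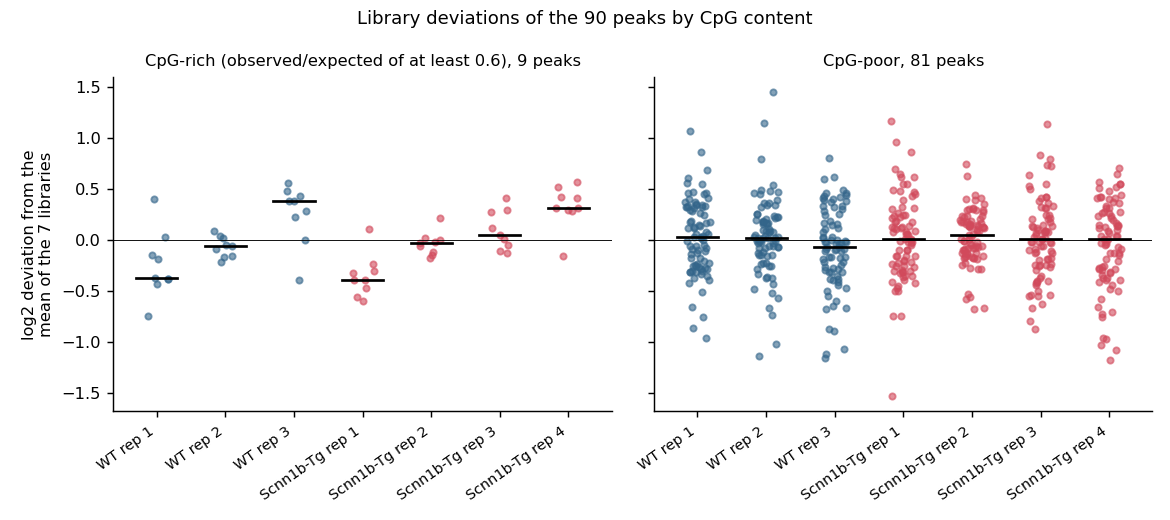
Log2 deviation of each peak from the mean of the 7 libraries, for the 9 CpG-rich and the 81 CpG-poor peaks, with a point per peak and a bar at the median. WT replicate 3 and *Scnn1b*-Tg replicate 4 sit at 0.38 and 0.32 in the CpG-rich peaks and replicate 1 of each genotype at -0.37 and -0.39, while all CpG-poor medians are near 0.

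At the start peaks, the range over the 7 libraries was 0.47 to 1.04 on the log2 scale at the 7 starts other than *Tet2*, and at all 7 of them *Scnn1b*-Tg replicate 4 was the highest of its genotype. The *Tet2* start, the most CpG-rich of the set at 0.851, had a range of 0.46 and another order of libraries. Likeness of patterns showed the same. The start peaks of 2577 genes followed the *Dnmt1* start over the 7 libraries with r above 0.9, 734 followed *Dnmt3a*, 4671 *Dnmt3b*, 2993 *Tet1*, 4481 *Tet3*, 4345 *Uhrf1* and 3369 *Mbd2*, but only 48 followed *Tet2*.

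The closest start peaks over the 7 libraries were *Ero1lb*, *Rcan3* and *Glrx3* for *Dnmt1* (r from 0.993 to 0.996), *Zfp267*, *Camta2* and *2810410L24Rik* for *Dnmt3a* (0.988 to 0.991), and *Olfm2*, *Dennd2c* and *Rnf145* for *Dnmt3b* (0.997 to 0.998). For *Tet1* they were *Mboat2*, *Ndufs5* and *Umad1* (0.997 to 0.998), for *Tet2* *1700016L21Rik*, *Drc1* and *Retreg1* (0.970 to 0.986), and for *Tet3* *Ypel1*, *Rab5if* and *Map2k1* (0.998). For *Uhrf1* they were *Akr7a5*, *Xpa* and *Cltb* (0.998) and for *Mbd2* *Klf11*, *Gcn1* and *Uso1* (0.996 to 0.997). With 7 libraries and 17797 start peaks, such values describe the libraries.

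Annotation of the members was close to that of the table. Introns held 34 peaks (37.8%, beside 33.3% of all), promoters 24 (26.7%, beside 31.1%), intergenic sequence 19 (21.1%, beside 26.8%), 3′ UTRs 7, exons 4, a 5′ UTR 1 and the stretch just downstream of a gene 1. In all, 54 lay in their own gene, 14 only in another gene and 22 in none, and 12 covered an annotated start of their gene. In 300-base windows at peak centres, the AP-1 string was in 14 of 90 members (15.6%, beside 12.4% of all peaks), the PU.1 string GAGGAAGT, of the lineage factor of macrophages, in 6 (6.67%, beside 8.70%), and the C/EBP string TTGCNNAA in 16 (17.8%, beside 16.6%). The CCAAT box was in 34 (37.8%, beside 31.8%) and the STAT6 string in 11 (12.2%, beside 7.73%). Windows with 2 or more AP-1 strings, as in *Dnmt3a* intron 1, made up 1.08% of all. Strings were searched on both strands, none of the 12 contains another, and a match is a run of letters, not a bound site.

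The promoter table of RefSeq (GRCm38.p6, 250 bases before to 50 after each start) held 12 starts of 7 of the 8 genes, with *Mbd2* the gene not matched. The E2F string was in 2 of the 12, at *Dnmt1* and *Uhrf1*, beside 1.38% of all 32851 promoters, and the NRF1 string was in 2, both at *Dnmt1*, beside 0.971%. The CCAAT box was in 5, at *Dnmt1*, *Tet3* and *Uhrf1*, beside 37.4%, and the E-box CACGTG in 1, at *Dnmt3a*, beside 7.15%. Starts of 1 gene share sequence, so these are not independent counts. The other 8 strings were in none of the 12, namely AP-1, PU.1, C/EBP, STAT6, ETS (CCGGAAGT), CRE (TGACGTCA), NF-kB and IRF.

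Partners of the methylation machinery were taken as a list of 50 genes: readers, cofactors of writing, repair enzymes that remove oxidized bases, TET regulators and enzymes that supply the methyl donor. Of these, 48 had peaks, and none of their 264 peaks passed in limma. At an unadjusted p under 0.05 there were 4 (1.52%, beside 2.01% of all peaks), all higher in *Scnn1b*-Tg, and 10 (3.79%, beside 3.23%) had no overlap. In all, 111 were higher and 153 lower, and their log2 fold changes had a median of -0.02, beside -0.01 over all peaks. The smallest p was at an intron peak of *Uhrf2*, the paralogue of *Uhrf1* (chromosome 19, 30113361 to 30113681), with 9.35, 8.30 and 3.43 normalized reads in WT and 23.1, 15.4, 41.1 and 25.2 in *Scnn1b*-Tg. All 4 *Scnn1b*-Tg libraries were above WT there, at a low level, with a log2 fold change of 1.77 (SE 0.47, unadjusted limma p 0.00289).

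An intergenic peak assigned to *Cdca7*, a cofactor of the remodeller HELLS, held 15.3, 1.19 and 13.7 in WT against 23.1, 21.8, 42.7 and 20.9 in *Scnn1b*-Tg (log2 fold change 1.74, SE 0.65, unadjusted limma p 0.0208). A promoter peak of *Ehmt1*, a histone methyltransferase gene, had 48.2 ± 4.59 (SD, n = 3) and 72.0 ± 7.16 (SD, n = 4), a log2 fold change of 0.57 (SE 0.21). The gene sums of smallest p were *Mtap* and *Gnmt*, with ratios of 0.878 and 1.17 and overlapping genotypes.

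Genes of DNA replication and the cell cycle, 26 in the list and 24 with peaks, had 88 peaks. Of these, 0 had an unadjusted p under 0.05, beside 2.01% of all peaks. Of the 88 peaks, 40 were higher and 48 lower, and the median over the list was -0.02 on the log2 scale. Only 1 (1.14%, beside 3.23% of all peaks) had no overlap. That peak, in an intron of *Ccne1*, the cyclin E1 gene, had 47.9 ± 6.10 (SD, n = 3) in WT against 32.9 ± 5.96 (SD, n = 4) in *Scnn1b*-Tg, and the log2 fold change was -0.54 (SE 0.26). Next came intergenic peaks of *Rrm2* (0.75, SE 0.42) and *Ccnb1* (-0.46, SE 0.27), whose genotypes overlapped. The gene sums of smallest p were *E2f2* and *Cdk1*, with ratios of 0.908 and 1.14.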

How the data were processed

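ATACseq was compared between sorted AMs of 3 WT and 4 *Scnn1b*-Tg libraries. Per the study's methods, the authors ran the ENCODE ATACseq pipeline against mm10, built a consensus peak set and counted reads with DiffBind, and annotated peaks with ChIPseeker. The signal values, as deposited, were reads per peak after TMM scaling by the authors, and dividing each library by its 1 factor gave whole reads in 100% of values (tolerance 1e-06). The deposited columns of log2 signal, fold change, p-value and FDR were not used. Libraries held 20971521 to 56121809 reads in peaks, which limits what peaks of few reads can show, and no pair of libraries shared a read number in more than 1.76% of peaks.

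Normalized counts were tested with limma 3.58.1 (R 4.3.3; trended, robust variances) as log2(value + 1), genotype being the only term, without a filter and with Benjamini-Hochberg adjustment over all 90376 peaks or 17797 gene sums. The fit was also run on simulated counts whose libraries differed only in depth, random noise and set folds. That run does not speak to the CpG-linked pattern of these libraries. Fold changes on this scale understate the change of low peaks. Alternatives were pseudocounts of 0.5 and 5, a minimum mean of 20, quantile and median scaling, edgeR 4.0.16 and DESeq2 1.42.0 on the whole reads, limma without trend, a fit with 1 surrogate variable (sva 3.50.0), leaving out each library in turn or both that stood apart, promoter-near or non-intergenic peaks for gene sums, 200 central bases for CpG content and whole-peak levels. Gene models were GENCODE M21, on the same build.

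The members and lists were chosen with earlier results of these data known. Named were, per gene, the start peak, the peak of smallest p, those of highest and lowest fold change, and all peaks without overlap, then the 3 peaks and the gene sums of smallest p per list, and 3 start peaks of closest pattern.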

Additional observations from a re-analysis of the deposited data

How the results depend on the processing

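No member passed an adjusted p of 0.05 in any of the 17 settings for peaks other than the fit with 1 surrogate variable, where 1 did, the wider *Dnmt3a* intron 1 peak (log2 fold change 0.76, limma adjusted p 0.0411). The cause of this and of the following changes was not tested. Over all 90376 peaks, 1 passed in limma, 72 with the surrogate variable, 47 in DESeq2, 0 in edgeR's quasi-likelihood test (1752 at an unadjusted p under 0.05) and 0 in limma without a variance trend (2610). With each library left out in turn, 0 members passed, as did 0 of all 90376 peaks. Members with an unadjusted p under 0.05 numbered 3 (without WT replicate 1, beside 1768 of all peaks) to 5. Over all peaks, the number at that p ran from 1215 to 3036 across these fits. Members whose genotypes did not overlap numbered 4 under median scaling (beside 3.26% of all peaks) and 5 under quantile normalization (beside 3.15%). All were at *Dnmt3a*, and these 2 settings were chosen after seeing the data. The *Dnmt3a* intron 4 peak also lost its unadjusted p under 0.05 without *Scnn1b*-Tg replicate 2 (0.0618) or replicate 4 (0.0734). No paired analysis was possible because the columns carry neither the numbers nor the batches of the labels, so every SE and p-value treats the libraries as unpaired.

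Of the 23 named peaks, 15 kept their sign in every setting, and of the 8 gene sums only *Dnmt3a* and *Tet1* did. With 1 library left out, log2 fold changes of the sums ran from -0.032 to 0.074 at *Dnmt1*, -0.33 to 0.10 at *Dnmt3b*, -0.043 to 0.15 at *Tet2*, -0.21 to 0.13 at *Tet3* and -0.14 to 0.069 at *Uhrf1*. Those of the start peaks ran from -0.19 to 0.079 at *Dnmt1*, -0.14 to 0.087 at *Dnmt3a*, -0.32 to 0.13 at *Dnmt3b* and -0.15 to 0.19 at *Tet1*. They ran from -0.0095 to 0.14 at *Tet2*, -0.28 to 0.19 at *Tet3*, -0.14 to 0.069 at *Uhrf1* and -0.16 to 0.13 at *Mbd2*. No direction can be read at these 8 start peaks. The *Dnmt3a* peak over the starts of Dnmt3a-209 and Dnmt3a-217, not a start peak by the rule, ran from 0.52 to 0.97. Without both libraries that stood apart, the *Dnmt1* sum had -0.061, the *Tet3* start 0.0048 and the *Mbd2* start 0.018. Over peaks within 3000 bp of a start, the sums of *Dnmt1* and *Mbd2* had -0.051 and -0.023, and under quantile normalization the *Dnmt3a* start had 0.0098. By whole peak in place of per kb, the starts lay above 88.4% of all genes at *Tet2*, 76.7% at *Tet3*, 70.6% at *Uhrf1*, 60.2% at *Dnmt1*, 57.6% at *Mbd2*, 55.9% at *Dnmt3a*, 51.6% at *Tet1* and 45.0% at *Dnmt3b*, with *Mbd2* moving from the second place to the fifth. The range of 20971521 to 56121809 reads in peaks sets what can be seen at peaks of few reads, where 1 read more or less moves a fold change.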
